A study of Mus musculus with 36 samples.

Results

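Alveolar macrophages that had been moved from the airways of adult mice into a new lung were compared with macrophages that had never left theirs. The comparison rests on 8 of the 36 arrays of the study, 4 of retransferred and 4 of native macrophages, and covers every gene whose probe set carries a single gene symbol. For the retransferred group, adult alveolar macrophages were sorted from the lavage of wild-type CD45.1+CD45.2+ mice aged 6 to 12 weeks and given through the nose to newborn Csf2rb-/- mice. Their CD45.1+CD45.2+ progeny were sorted from the recipients' lavage 6 weeks later. The native group was sorted from the lavage of untreated wild-type CD45.1+CD45.2 mice aged 6 weeks, the age of the recipients but not of the transferred cells. Cell age, transfer and the Csf2rb-/- host all differ between these groups and cannot be told apart in this comparison. All mice were C57BL/6. Csf2rb encodes the shared chain of the GM-CSF receptor, so the recipient's own cells lack it while the transferred cells carry the intact gene. A further group of 4 arrays held the adult donor macrophages before transfer, and 12 other arrays held macrophages sorted in the same way from Csf2rb-/- recipients of bone marrow monocytes, fetal liver monocytes or yolk sac macrophages. These are called the adult donor group and the bone marrow-, fetal liver- and yolk sac-derived groups. The plots write AM-derived for retransferred, and BM-, FL- and YS-derived for the other origins.

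Alveolar macrophages live on the air side of the alveolus, where they take up and break down surfactant lipids, inhaled particles and dying cells. They arise around birth under GM-CSF, which induces the transcription factor Pparg, and then maintain themselves with little input from the blood. Mice without Csf2rb have no functional alveolar macrophages and accumulate surfactant, so transferred cells enter a lung with an empty niche.

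RNA was amplified and hybridised to Affymetrix Mouse Gene 1.0 ST arrays, and levels are given on the deposited log2 scale, on which a difference of 1 is a factor of 2. Array medians lay between 4.54 and 4.73, and each array's mean correlation with its own group lay between 0.963 and 0.982. The median of the whole value table, 4.62, served as the boundary of dim signal, since the deposited table has no detection calls. The labels call the 4 arrays of a group biological replicates; whether an array holds RNA of 1 mouse or of several is not given, so p-values measure the spread between these samples.

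The labelled cell type held against its markers. All 10 alveolar macrophage markers found on the array, of 12 listed, were above the dim boundary in native, adult donor and retransferred macrophages, and their mean per array lay between 10.6 and 10.9 in the retransferred group and between 10.7 and 10.8 in the native group. Chil3, a chitinase-like secreted protein, was the brightest of them at 12.86 and 12.90. Markers of most other cells had low array means, though single markers lay above the boundary. The array means of 4 monocyte markers spanned 4.23 to 4.46 in retransferred and 4.21 to 4.45 in native macrophages, those of 7 interstitial macrophage markers 3.80 to 4.01 and 3.90 to 4.11, and those of 5 dendritic cell markers 3.80 to 4.23 and 3.76 to 3.90. Of 8 neutrophil markers 3 were above the boundary, with array means of 4.35 to 4.52 in retransferred and 4.09 to 4.38 in native macrophages, and the brightest after transfer was Cxcr2 at 7.04. Of 6 lung epithelium markers 4 were above it, with array means of 5.03 to 5.25 and 4.91 to 5.17, and the brightest after transfer was Scgb1a1 at 6.44. Of the 4 monocyte markers 2 were above it in each group, the brightest being Ccr2 at 5.48 in retransferred and Cx3cr1 at 5.74 in native macrophages. In both groups 1 of 4 T and NK cell markers was above it (Cd3e, 5.18 and 5.12). The same held for 2 of 4 endothelium and fibroblast markers, the brightest being Col1a1 at 5.52 and 5.61. None of 3 B cell markers and none of 3 eosinophil markers was above the boundary in any of the 3 groups. The sex-linked transcripts did differ between arrays. Xist, transcribed from the inactive X chromosome, was at 8.10, 7.99, 8.62 and 8.62 in the retransferred arrays but at 4.31, 8.99, 9.24 and 3.73 in the native arrays, while the Y-linked Eif2s3y was at 6.5, 7.34, 5.78 and 6.60 against 7.88, 2.65, 2.85 and 7.87. The donor arrays were at 8.51, 8.28, 8.43 and 8.14 for Xist and at 6.45, 6.57, 7.26 and 7.01 for Eif2s3y. Every retransferred and donor array thus had high signal for both transcripts, and each native array for 1 of them only. In every comparison with native macrophages this difference and the group cannot be told apart. Native replicates 1 and 4 and native replicates 2 and 3 were also compared on their own. Each of these pairs still had 1 of the signals only, against both in the retransferred arrays.

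Of 12244 genes tested, 131 differed between retransferred and native macrophages (1.07%, limma, Benjamini-Hochberg adjusted p under 0.05). Of these, 93 were higher (0.76%) and 38 lower (0.31%) in the retransferred group. Wording such as after transfer, rise or fall sets that group against native macrophages, which were not its source cells. At least a 2-fold difference was reached by 62 of the higher genes (0.506%) and by 13 of the lower ones (0.106%). The median size of difference was 1.08 on the log2 scale among called genes and 0.13 over all genes, and 95.6% of all genes differed by less than 0.5. For 86 of the 93 higher genes and 37 of the 38 lower genes the 4 retransferred and the 4 native arrays did not overlap; over all genes tested the arrays did not overlap for 747 (6.1%), higher in 400 (3.27%) and lower in 347 (2.83%). At an unadjusted p under 0.05, 1113 genes differed (9.09%). The last gene inside the threshold had an adjusted p of 0.048 and the first outside it 0.0549. As a single value for the profile, the mean distance per gene between a retransferred and a native array was 0.42, against 0.374 between arrays of the same group, and no other split of the 8 arrays gave a larger excess (exact one-sided permutation p = 0.0286, the smallest that 70 relabellings can give). The excess, 0.0461 here, was -0.00347 for adult donor against native macrophages (exact permutation p = 0.571) and 0.0274 for retransferred against donor macrophages (exact permutation p = 0.114), neither past the threshold. In bulk RNA, more cells of a kind and more RNA per cell cannot be told apart.

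Of the 52 called genes named by rule, 23 kept their call against native replicates 1 and 4 alone and against native replicates 2 and 3 alone, 2 native arrays in place of 4. These were Scd1, Ddah1, AA467197, Mmp12, Mfge8, Pdpn, Cd74, Clec1b, Plpp3, Lpcat2, Igf1, Msr1, Trem2, Stra6l, Tmem30b, Fn1, Emb, Inka1, Cysltr1, Arhgap15, Hpgd, Tceal8 and St8sia4. Against replicates 1 and 4 only, the calls of 5 were lost, Pdk4, Abca1, Gbe1, Akr1b8 and Cxcr1. Against replicates 2 and 3 only, 12 were lost, H2-Ab1, H2-Eb1, S100a4, S100a6, Ccl9, Plau, Ct55, Adgrl3, Atrnl1, Egfem1, Zcchc3 and Kdm5b. Against both, 12 were lost, H2-Aa, Spag11b, Cyp4a12b, Scd2, Marco, Cdh1, Clec4d, Cdkn2b, Fcgr1, Slc7a1, Asah1 and Cpne5.

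**Figure D1:**
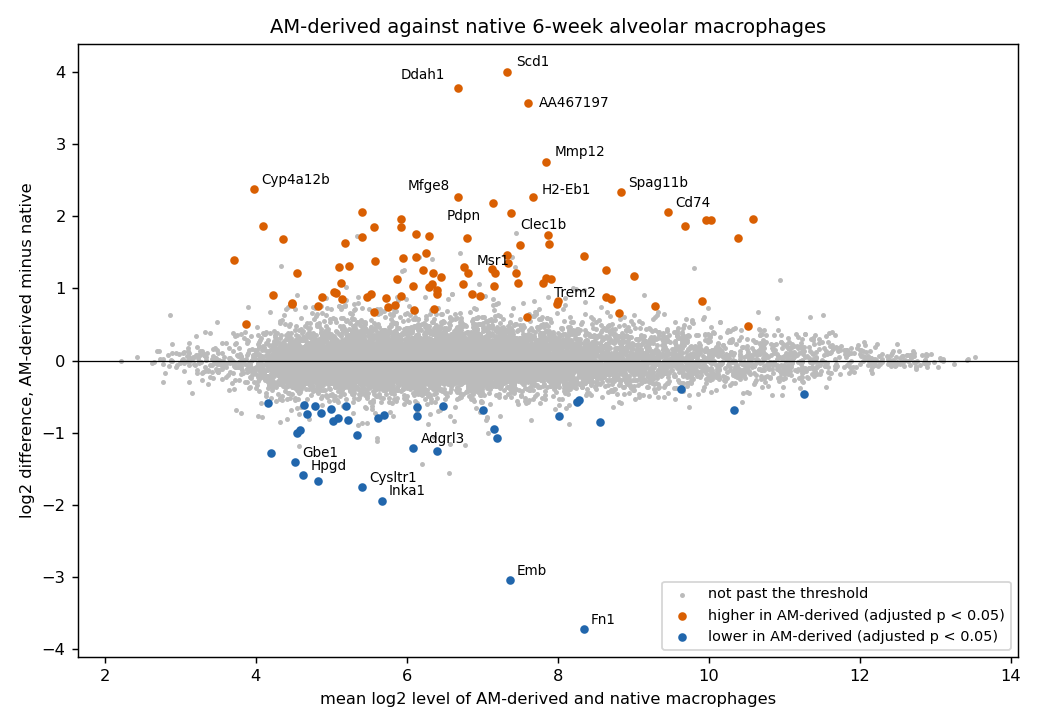
Each point is 1 of 12244 genes, with its mean log2 level in the 8 arrays on the horizontal axis and the log2 difference, AM-derived (retransferred) minus native, on the vertical axis. The 93 orange and 38 blue points passed the threshold; Scd1 stands highest at 4.00 and Fn1 lowest at -3.72, and most genes lie close to 0.

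The largest difference was in Scd1, the stearoyl-CoA desaturase that places the double bond in newly made fatty acids. Its level was 10.00, 9.20, 8.89 and 9.24 in the retransferred arrays and 5.05, 6.22, 4.68 and 5.36 in the native arrays, so that the lowest retransferred array stood well above the highest native one. The means were 9.33 ± 0.47 and 5.33 ± 0.65 (SD, n = 4), a 16-fold difference (log2 4.00, SE 0.37, limma adjusted p = 3.57e-08). The adult donor arrays lay between, at 6.92, 7.44, 6.89 and 6.73, below every retransferred array and above every native array. Retransferred macrophages exceeded the donor group by 2.34 (limma adjusted p = 0.000323), while the donor group exceeded the native group by 1.67 without passing the threshold (limma adjusted p = 0.339). Scd2, a second desaturase, was higher by 1.21 (limma adjusted p = 0.0388), but this call was lost in 6 of the 8 fits that left out 1 array (without retransferred replicates 1, 2 or 4 or native replicates 1, 2 or 3; largest adjusted p 0.176).

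These desaturases were the only called members among 13 tested genes of fatty acid synthesis, 2 higher and none lower. This is 15.4% called, against 1.07% over all genes, and the list's median difference was 0.07. Fasn, the fatty acid synthase, was at -0.34 (limma adjusted p = 0.685) and Acaca, the acetyl-CoA carboxylase, at 0.24 (limma adjusted p = 0.812). None of 18 sterol synthesis genes passed the test, and their median was -0.18, with Sqle, squalene epoxidase, the farthest from 0 at -0.66 (limma adjusted p = 0.413). The median over all genes tested was -0.01.

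Among 30 genes of lipid uptake, storage and efflux, 2 were higher and none was lower (6.67%, against 1.07% over all genes), with a list median of 0.04. Pdk4, the kinase that shuts off pyruvate dehydrogenase when cells burn fat, was at 8.0, 7.32, 7.74 and 7.54 after transfer and at 6.63, 6.44, 4.87 and 5.89 in native macrophages, without overlap, a 3.24-fold difference (log2 1.70, SE 0.32, limma adjusted p = 0.0023). Abca1, the cholesterol efflux pump, was at 7.76, 7.61, 7.58 and 7.71 against 6.5, 6.75, 6.37 and 6.94, again without overlap, a 2.04-fold difference (log2 1.03, SE 0.19, limma adjusted p = 0.00231). Against native replicates 1 and 4 alone the adjusted p was 0.055 for Pdk4 and 0.0585 for Abca1. Of other lipid genes of alveolar macrophages, Fabp4 was at 0.32, Fabp5 at 0.11, Lpl at 0.12 and Plin2 at -0.16, none past the threshold. Over the whole list the differences ran from -0.57 to 1.70, with 17 above 0 and 13 below.

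Plpp3, a membrane phosphatase that inactivates lysophosphatidic acid, was at 7.20, 7.44, 6.79 and 6.21 after transfer and at 5.11, 4.89, 4.67 and 5.10 in native macrophages, a 3.92-fold difference (log2 1.97, SE 0.33, limma adjusted p = 0.000495). Lpcat2, which makes platelet-activating factor and remodels phosphatidylcholine, was at 7.62, 7.47, 7.30 and 7.27 against 5.75, 6.39, 6.29 and 6.39, a 2.31-fold difference (limma adjusted p = 0.000205). In both genes the arrays of the groups did not overlap. Asah1, the lysosomal acid ceramidase, was lower by 0.40 (limma adjusted p = 0.0357), a call lost in 5 of the 8 fits that left out 1 array (retransferred replicate 3 or 4 or native replicate 1, 3 or 4; largest adjusted p 0.279). Lpcat2 and Asah1 were the members called, 1 in each direction, among 12 tested genes of surfactant and phospholipid handling (median -0.12). This is 16.7% called, against 1.07% over all genes.

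Cyp4a12b, a fatty acid hydroxylase, was at 5.23, 4.12, 6.03 and 5.27 after transfer but between 2.67 and 2.89 in native macrophages. Since the native signal was dim, the difference is a bound of at least 1.45-fold (limma adjusted p = 0.00973), and the call was lost without retransferred replicate 3 (adjusted p = 0.0596). Its close copy Cyp4a12a was also called, and the probe sets of such near-identical genes can share signal. Other lipid enzymes were singled out after their values were seen. Chpt1, which completes phosphatidylcholine synthesis, was higher by 1.13 (SE 0.16, limma adjusted p = 2.83e-05), Lipf, a lipase, by 1.6 (SE 0.21, limma adjusted p = 1.88e-05) and Plaat3, a phospholipase and acyltransferase, by 1.25 (SE 0.21, limma adjusted p = 0.000595). All 3 remained called in each fit that left out 1 array.

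The antigen-presenting genes of MHC class II held 4 of the higher genes, all with similar differences. These molecules load peptides from swallowed material for recognition by CD4+ T cells, and their genes are switched on together through short promoter elements, among them the X2 and Y boxes. The 250 bases before the start site of 2 of the called genes are shown with these boxes in capitals, the X2 box as TGACGTCA and the Y box as CTGATTGG, both strands searched. The sequences are from RefSeq on GRCm38.p6, written 5′ to 3′ on the strand of the gene; H2-Aa lies on the minus strand at chr17:34287824-34288073 and H2-Eb1 on the plus strand at chr17:34305617-34305866.
H2-Aa: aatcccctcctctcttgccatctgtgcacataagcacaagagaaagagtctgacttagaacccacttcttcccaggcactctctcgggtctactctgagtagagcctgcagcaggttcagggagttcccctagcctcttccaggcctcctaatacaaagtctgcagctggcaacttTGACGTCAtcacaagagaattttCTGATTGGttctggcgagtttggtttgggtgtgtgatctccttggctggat
H2-Eb1: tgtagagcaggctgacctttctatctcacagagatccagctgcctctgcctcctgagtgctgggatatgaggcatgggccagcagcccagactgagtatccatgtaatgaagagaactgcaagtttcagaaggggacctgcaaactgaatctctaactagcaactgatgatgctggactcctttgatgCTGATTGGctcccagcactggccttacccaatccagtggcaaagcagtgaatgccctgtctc
The Y box begins 51 bases before the start in H2-Aa and 62 bases before it in H2-Eb1, and the X2 letters begin 74 bases before the start in H2-Aa. Of 27025 genes with a promoter of this length, 4.43% hold the Y box letters and 1.77% the X2 letters; of the 103 called genes with such an entry, 10 and 3 do. The motifs do not overlap each other, and a match describes letters only.

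H2-Aa, the class II alpha chain of I-A, was at 10.58, 11.29, 11.12 and 10.75 in retransferred macrophages and at 8.82, 10.22, 7.92 and 8.98 in native ones. H2-Eb1, the beta chain of I-E, was at 8.27, 9.18, 9.21 and 8.56 against 6.24, 7.78, 5.76 and 6.39. Cd74, the invariant chain that guides class II molecules to the endosome, was at 10.37, 10.92, 10.46 and 10.18 against 8.31, 9.51, 7.12 and 8.75. In these genes, and in the beta chain H2-Ab1, no native array reached the lowest retransferred array, and native replicate 2 was the highest native array and native replicate 3 the lowest. H2-Eb1 was 4.81-fold higher (log2 2.27, SE 0.41, limma adjusted p = 0.00137), Cd74 4.17-fold (log2 2.06, SE 0.39, limma adjusted p = 0.00264), H2-Aa 3.87-fold (log2 1.95, SE 0.45, limma adjusted p = 0.0177) and H2-Ab1 3.66-fold (log2 1.87, SE 0.41, limma adjusted p = 0.00987). The spread was wider in native macrophages, with an SD of 0.94 for H2-Aa against 0.33.

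Of 12 tested genes on the MHC class II list these 4 were higher and none was lower (33.3% called, against 1.07% over all genes). Another 6 members were below 0, the lowest at -0.62, without a call. In 1 of those 6 the arrays of the groups did not overlap, as was the case in this direction for 2.83% of all genes. Ctss, the cathepsin that trims the invariant chain, was at -0.17, H2-DMa, which exchanges peptides, at -0.33, and the costimulatory Cd86 at -0.62, none past the threshold. H2-Oa, a modulator of peptide exchange outside the list and singled out after its value was seen, was higher by 1.14 (limma adjusted p = 0.0311), a call lost in 7 of the 8 fits that left out 1 array. H2-Eb1 and Cd74 remained called in each of those fits. The call of H2-Ab1 was lost without native replicate 3 (adjusted p = 0.0841), and that of H2-Aa without retransferred replicate 2 or 3 or native replicate 1, 3 or 4 (largest adjusted p 0.129). Both H2-Ab1 and H2-Aa also lost their calls with only the 24 alveolar macrophage arrays. Against native replicates 2 and 3 alone, Cd74 kept its call (2.17, adjusted p = 0.0369), while H2-Eb1 (2.04, adjusted p = 0.0843), H2-Ab1 (1.85, adjusted p = 0.167) and H2-Aa (1.87, adjusted p = 0.271) did not. H2-Aa also lost its call against native replicates 1 and 4 alone (2.04, adjusted p = 0.0537). The probe sets of this gene family may share signal. None of 12 class I presentation genes was called, and none of 31 interferon response genes was, although 25 of the 31 were above 0 (median 0.21).

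The adult donor macrophages had class II levels between those of the other groups, at 8.86, 10.46, 10.86 and 10.86 for H2-Aa, which overlapped both. The difference from native macrophages was 1.27 for H2-Aa, 1.32 for H2-Ab1, 1.38 for H2-Eb1 and 1.42 for Cd74, none past the threshold (smallest limma adjusted p 0.663). Retransferred macrophages differed from the donors by 0.68, 0.55, 0.88 and 0.64 in the same order, also none past it (smallest limma adjusted p 0.547). Clec1b, the gene for the podoplanin receptor CLEC-2, was already high in the donors. It was at 8.43, 8.44, 8.34 and 8.41 in retransferred, 7.65, 8.59, 8.05 and 8.46 in donor and 5.93, 7.10, 5.93 and 6.48 in native macrophages. No native array reached a donor or retransferred array. Retransferred macrophages exceeded native ones by 2.05 (4.13-fold, SE 0.28, limma adjusted p = 2.69e-05) and the donors by 0.22 (limma adjusted p = 0.919), and the donors exceeded the native group by 1.83 (limma adjusted p = 0.00277). Clec1b was 1 of 2 genes that separated donor from native macrophages, out of 12244 (0.0163%); the other, Tmem9, was higher in donors by 1.00 (limma adjusted p = 0.0141) and was not called after transfer.

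Receptors and bridges for the uptake of particles and dying cells were among the higher genes. Mfge8, a secreted protein that links phosphatidylserine on dying cells to integrins, was at 7.96, 7.97, 7.62 and 7.71 after transfer and at 5.35, 6.03, 5.36 and 5.46 in native macrophages, without overlap (4.81-fold, log2 2.27, SE 0.26, limma adjusted p = 1.34e-06). Trem2, a lipid-sensing receptor of tissue macrophages, was at 8.14, 8.38, 8.14 and 8.70 against 7.18, 7.52, 7.22 and 7.12 (2.11-fold, limma adjusted p = 8.08e-05). Msr1, the class A scavenger receptor, was at 8.35, 8.14, 7.70 and 8.04 against 6.57, 6.98, 7.27 and 6.54 (2.33-fold, limma adjusted p = 1.99e-05). In all 3 genes the arrays were apart, and each kept its call in every fit that left out 1 array. Retransferred macrophages also exceeded the donors in Mfge8 by 2.31 (limma adjusted p = 1.72e-06), in Trem2 by 0.81 (limma adjusted p = 0.00596) and in Msr1 by 1.54 (limma adjusted p = 9.79e-07).

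Of 27 tested scavenger and phagocytic receptors 3 were higher and 1 was lower, 14.8% called against 1.07% over all genes. The list median was 0.00. Beside Msr1 the higher ones were Marco, a scavenger receptor typical of alveolar macrophages (0.76, limma adjusted p = 0.0255), and Clec4d, a C-type lectin (0.86, limma adjusted p = 0.0463). The lower one was Fcgr1, the high-affinity receptor for immunoglobulin G (-0.55, limma adjusted p = 0.0399). These 3 calls were not stable. Leaving out 1 array ended that of Marco in 5 of 8 fits (retransferred replicate 1 or 2 or native replicate 1, 2 or 3; largest adjusted p 0.176), that of Clec4d in 5 (retransferred replicate 1, 2 or 3 or native replicate 1 or 3; 0.29) and that of Fcgr1 in 7 (all but retransferred replicate 4; 0.127). Mertk and Axl, receptors for dying cells, were at 0.00 and -0.31, and Cd36 was at 0.23, none past the threshold.

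Genes of the extracellular matrix and its breakdown held the most strongly lowered gene. Fn1, fibronectin, was at 6.61, 7.14, 6.36 and 5.82 after transfer and at 10.08, 9.97, 10.47 and 10.30 in native macrophages. The donors were at 10.35, 10.19, 10.09 and 8.81, so that even their lowest array was above the highest retransferred one. The fall from the native level was 13.2-fold (log2 -3.72, SE 0.40, limma adjusted p = 6.15e-07), and the difference from the donor level was -3.38 on the log2 scale (limma adjusted p = 2.90e-06). Mmp12, the macrophage elastase, went the other way, at 9.19, 9.23, 8.79 and 9.67 against 6.03, 7.18, 6.02 and 6.62, a 6.76-fold rise without overlap (log2 2.76, SE 0.46, limma adjusted p = 0.000495). Plau, the urokinase-type plasminogen activator, was higher by 0.92 (limma adjusted p = 0.0162), a call lost without retransferred replicate 1 or 2 or native replicate 1 or 4 (largest adjusted p 0.137). These were the called members, 2 higher and 1 lower, of 17 tested matrix and proteinase genes (median -0.05). This is 17.6% called, against 1.07% over all genes. Tgfb2, a TGF-beta ligand singled out after its value was seen, was dim in every retransferred array and at least 1.34-fold lower (limma adjusted p = 0.00549), a call lost against native replicates 2 and 3 alone.

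The leading lowered genes included 2 that act on eicosanoids, the lipid mediators made from arachidonic acid. Hpgd, the dehydrogenase that inactivates prostaglandins, was at 3.70, 3.91, 3.71 and 4.01 after transfer and at 5.46, 5.15, 5.49 and 5.6 in native macrophages. The retransferred signal was dim throughout, which bounds the difference at 1.74-fold or more (measured log2 -1.59, SE 0.22, limma adjusted p = 2.54e-05). Cysltr1, the receptor for cysteinyl leukotrienes, was at 4.44, 4.89, 4.07 and 4.73 against 5.76, 6.5, 6.69 and 6.20, a fall of at least 2.97-fold (measured log2 -1.75, SE 0.26, limma adjusted p = 5.23e-05). Neither gene's arrays overlapped. Both were also lower than in the donors, Hpgd at least 1.68-fold (limma adjusted p = 5.89e-05) and Cysltr1 at least 2.29-fold (limma adjusted p = 0.0026). Ptgr1, a reductase that inactivates leukotriene B4 and prostaglandins and was singled out after its value was seen, was higher by 0.66 (SE 0.13, limma adjusted p = 0.00488), a call lost against native replicates 2 and 3 alone.

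Other leading higher genes belonged to no list. Ddah1, which breaks down the methylarginines that inhibit nitric oxide synthases, was at 9.85, 8.07, 7.48 and 8.91 after transfer and at 4.44, 4.60, 4.88 and 5.25 in native macrophages. It was the second largest difference, 13.8-fold, with the widest spread among the 4 retransferred arrays of the leading 4 genes (SD 1.03; log2 3.78, SE 0.55, limma adjusted p = 5.17e-05). AA467197, the mouse gene for the mitochondrial protein NMES1, was at 9.22, 9.25, 9.61 and 9.49 against 4.91, 7.06, 5.45 and 5.89, an 11.8-fold rise (log2 3.57, SE 0.45, limma adjusted p = 1.06e-05). RefSeq places it on chromosome 2 at 122637887 to 122641076 (GRCm38.p6), and the hairpin of Mir147 lies within that span at 122640803 to 122640881. Spag11b, a defensin-like secreted peptide, was at 9.99, 10.07, 10.36 and 9.57 against 7.92, 8.15, 7.12 and 7.46 (5.04-fold, limma adjusted p = 0.00979), a call lost without native replicate 3 (adjusted p = 0.0546), against either pair of native arrays (0.104 and 0.137) and with only the 24 alveolar macrophage arrays; related defensin genes may share its signal. Pdpn, podoplanin, the ligand of CLEC-2, was at 7.94, 8.75, 7.86 and 8.39 against 5.96, 6.69, 5.82 and 5.74 (4.53-fold, limma adjusted p = 8.44e-07). In none of these 4 genes did the groups overlap.

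S100a6 and S100a4, calcium-binding proteins, were higher by 1.96 and 1.95 (limma adjusted p = 0.0191 and 0.0195). S100a4 was at 10.72, 11, 10.78 and 11.52 after transfer and at 7.72, 10.31, 9.17 and 9.02 in native macrophages, so the groups stood apart by the narrow gap between 10.72 and 10.31. The size of both differences depended on the native arrays. Against native replicates 1 and 4 alone, S100a6 differed by 2.96 and S100a4 by 2.63 (limma adjusted p = 0.00046 and 0.00634). Against native replicates 2 and 3 alone they differed by 0.95 and 1.27 (limma adjusted p = 0.813 and 0.634). Leaving out 1 array ended the call of S100a6 in 4 of 8 fits (retransferred replicate 2 or 4 or native replicate 1 or 4; largest adjusted p 0.177) and that of S100a4 in 5 (the same arrays or native replicate 3; 0.184). Of 18 tested classical monocyte markers S100a4 alone was higher and Fn1 alone was lower (11.1%, against 1.07% over all genes), with a median of 0.00. Ccr2 and Cx3cr1, the chemokine receptors of monocytes, were at -0.15 and -0.29, neither past the threshold. Of 22 tissue and fetal macrophage markers Trem2 and Igf1, insulin-like growth factor, were higher, Igf1 by 1.47 (SE 0.26, limma adjusted p = 0.0012), and none was lower (median -0.07). This is 9.09% called, against 1.07% over all genes. Of 15 interstitial macrophage markers none was called.

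Among the remaining lowered genes Emb led. Embigin, its product, escorts monocarboxylate transporters to the cell surface. It was at 5.83, 6.10, 6.19 and 5.24 after transfer, 8.59, 9.11, 9.14 and 8.71 in native macrophages and 8.4, 8.68, 8.62 and 8.58 in donors. No untransferred array came near a retransferred one, and the fall from native was 8.27-fold (log2 -3.05, SE 0.43, limma adjusted p = 3.20e-05). Inka1, an inhibitor of the kinase PAK4, was at 4.65, 4.41, 4.59 and 5.14 against 6.83, 7.44, 6.44 and 5.86, a 3.84-fold fall (limma adjusted p = 1.06e-05). Arhgap15, which switches off Rac, fell at least 2.05-fold (measured log2 -1.68, limma adjusted p = 4.08e-05), and Gbe1, the glycogen branching enzyme, at least 1.52-fold (measured log2 -1.41, limma adjusted p = 0.000921). Adgrl3, an adhesion receptor of the latrophilin family, was at 5.34, 5.86, 5.70 and 5.00 against 6.97, 6.43, 6.75 and 6.63 (log2 -1.22, SE 0.24, limma adjusted p = 0.00409). The other genes among the 15 leading lowered ones were Egfem1, Atrnl1, Tceal8, St8sia4, Zcchc3, Kdm5b and Cpne5. Atrnl1, Tceal8, St8sia4 and Cpne5 differed by -1.26, -1.07, -1.03 and -0.96. Egfem1, Zcchc3 and Kdm5b were dim after transfer, so their falls are bounds of at least 1.17-, 1.35- and 1.37-fold. Egfem1 lost its call in 5 of the 8 fits that left out 1 array (retransferred replicate 1 or 2 or native replicate 1, 3 or 4; largest adjusted p 0.103) and Cpne5 without retransferred replicate 4 (adjusted p = 0.0522).

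**Figure D2:**
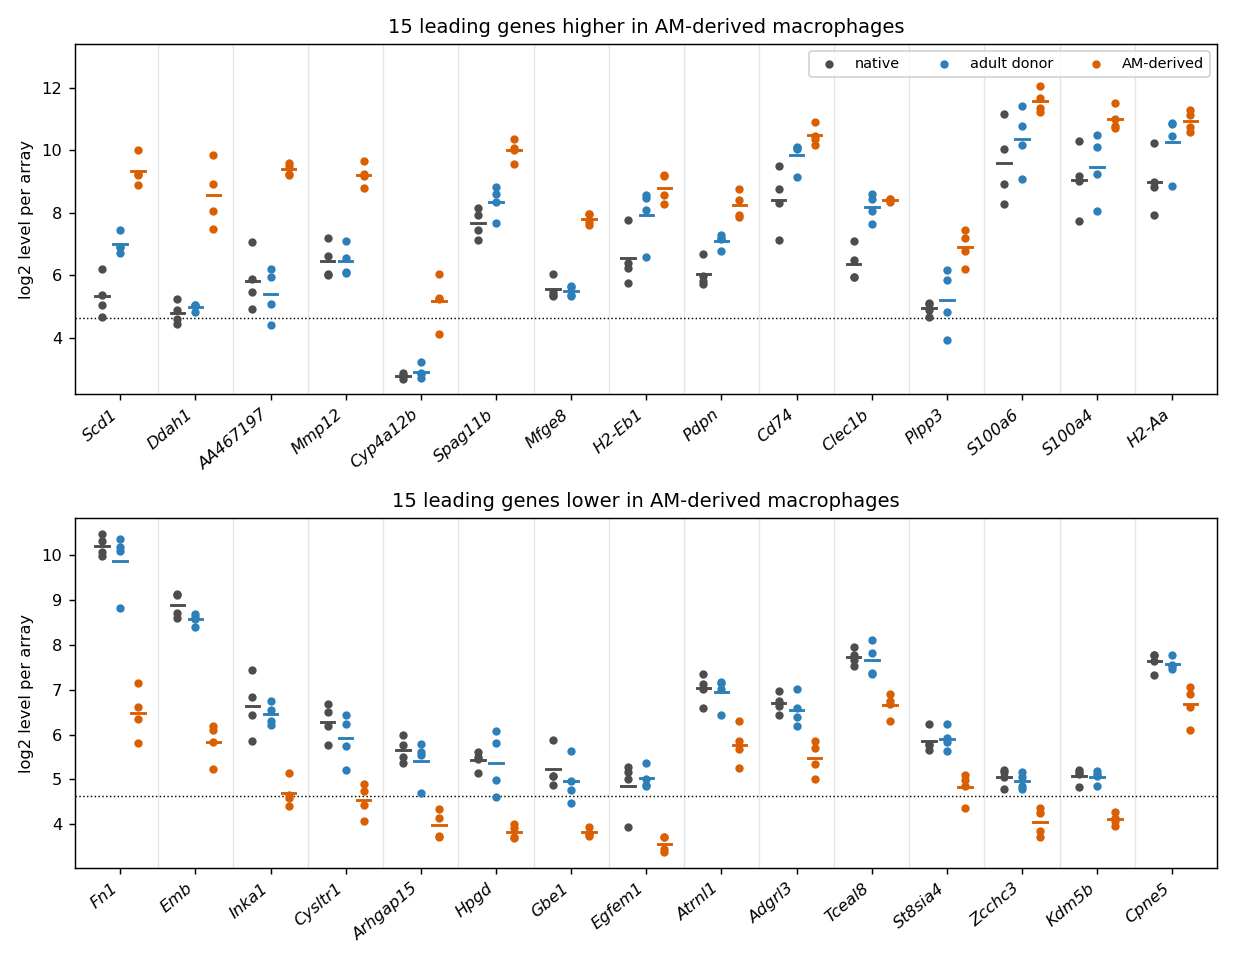
Log2 level in each array (points) and group mean (short bar, n = 4) of the 15 leading higher and 15 leading lower genes in native, adult donor and AM-derived (retransferred) macrophages; the dotted line is the table median, 4.62. Donor arrays lie with the native ones for Emb, Mfge8 and Mmp12 and with the retransferred ones for Clec1b, and Scd1 in donors lies between.

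The programme that defines alveolar macrophages was also measured. Of 30 tested identity genes 2 were higher, Marco and Cdh1, and none was lower, with a median of -0.02. This is 6.67% called, against 1.07% over all genes. The arrays did not overlap for 3 of the 30 in the higher and 4 in the lower direction. Over all genes these shares were 3.27% and 2.83%. Cdh1, E-cadherin, was higher by 0.78 (SE 0.19, limma adjusted p = 0.0263), a call lost without retransferred replicate 1 or 2 or native replicate 1, 2 or 3 (largest adjusted p 0.176). Pparg, the master regulator, was at 10.24, 9.88, 10.10 and 9.83 after transfer and at 10.46, 10.22, 10.24 and 10.09 in native macrophages, which overlap (-0.24, SE 0.14, limma adjusted p = 0.663). Siglecf, a sialic acid-binding receptor, was at 9.53, 9.52, 9.11 and 9.15 against 9.69, 9.55, 9.72 and 9.51, also overlapping (-0.29, SE 0.19, limma adjusted p = 0.702). Car4, a membrane carbonic anhydrase, differed by -0.04 (SE 0.15), Fabp1, a fatty acid-binding protein, by -0.06 (SE 0.23), Itgax, the integrin CD11c, by -0.31 (SE 0.19), Mrc1, the mannose receptor, by -0.35 (SE 0.21), and Bhlhe41, a transcription factor, by 0.13 (SE 0.23). None of these passed the threshold, and a p that misses it does not show that the levels are the same.

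None of 21 genes of the GM-CSF receptor and its signalling was called (median 0.01). Csf2rb, the receptor chain missing in the recipients, was at 9.81, 9.85, 9.46 and 9.48 in retransferred and at 9.91, 9.76, 9.77 and 9.96 in native macrophages (-0.20, SE 0.19, limma adjusted p = 0.838). Csf2ra, the ligand-specific chain, differed by -0.16 (SE 0.18, limma adjusted p = 0.862), and the groups overlapped in both genes. No call was made either among 34 cell cycle genes (median -0.04), 30 lysosomal genes (median -0.08), 29 respiratory chain genes (median 0.04), 31 haematopoietic transcription factors (median -0.04) or 21 genes of the immediate early and dissociation response (median -0.03). In all, 26 of the 42 lists had no called member, with medians from -0.38 to 0.21. Over all genes tested 1.07% were called, so few or no calls are likely in lists of this length. A list without a call does not show that its genes were unchanged.

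Single members of other lists passed the test, 3.85% to 7.69% of each list against 1.07% over all genes. In lists this short 1 call exceeds that share. Among 25 inflammatory mediators Ccl9, a chemokine, was higher by 1.45 (limma adjusted p = 0.0128) with overlapping arrays, and the call was lost without retransferred replicate 3 or 4 or native replicate 1 or 3 (largest adjusted p 0.134). Among 16 chemokine receptors Cxcr1, a receptor of neutrophil chemoattractants, was higher by 1.15 (limma adjusted p = 0.009), a call lost without retransferred replicate 2 or 3 or native replicate 3 (largest adjusted p 0.073). Cxcr1 was also the only called member of 15 tested neutrophil markers. Cxcr2, the other receptor of these ligands and a member of both lists, was at 7.45, 6.94, 7.4 and 6.35 against 5.68, 5.15, 6.41 and 5.25, which overlap, and differed by 1.41 without passing (limma adjusted p = 0.0976). The array means of 8 neutrophil markers lay from 4.35 to 4.52 after transfer and from 4.09 to 4.38 in native macrophages, and the part of such cells in the result was not tested. Among 26 oxidative stress genes Akr1b8, an aldo-keto reductase, was higher by 1.86 (limma adjusted p = 0.00425), at 7.73, 8.03, 5.99 and 5.66 against 5.38, 4.78, 4.10 and 5.71, which overlap. Among 13 ageing and senescence genes Cdkn2b, an inhibitor of cyclin-dependent kinases, was higher by 0.88 (SE 0.18, limma adjusted p = 0.00501), a call lost in the fit of the 8 arrays alone and against either pair of native arrays (adjusted p = 0.101 and 0.0549). Among 19 genes of the amino acid and stress response Slc7a1, the arginine transporter, was lower by 0.65 (limma adjusted p = 0.0317), a call kept in only 1 of the 8 fits that left out 1 array, the one without retransferred replicate 1. Among 14 lung epithelium markers Cdh1 alone was called; the club cell protein gene Scgb1a1 was at 1.10 without passing (limma adjusted p = 0.398).

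**Figure D3:**
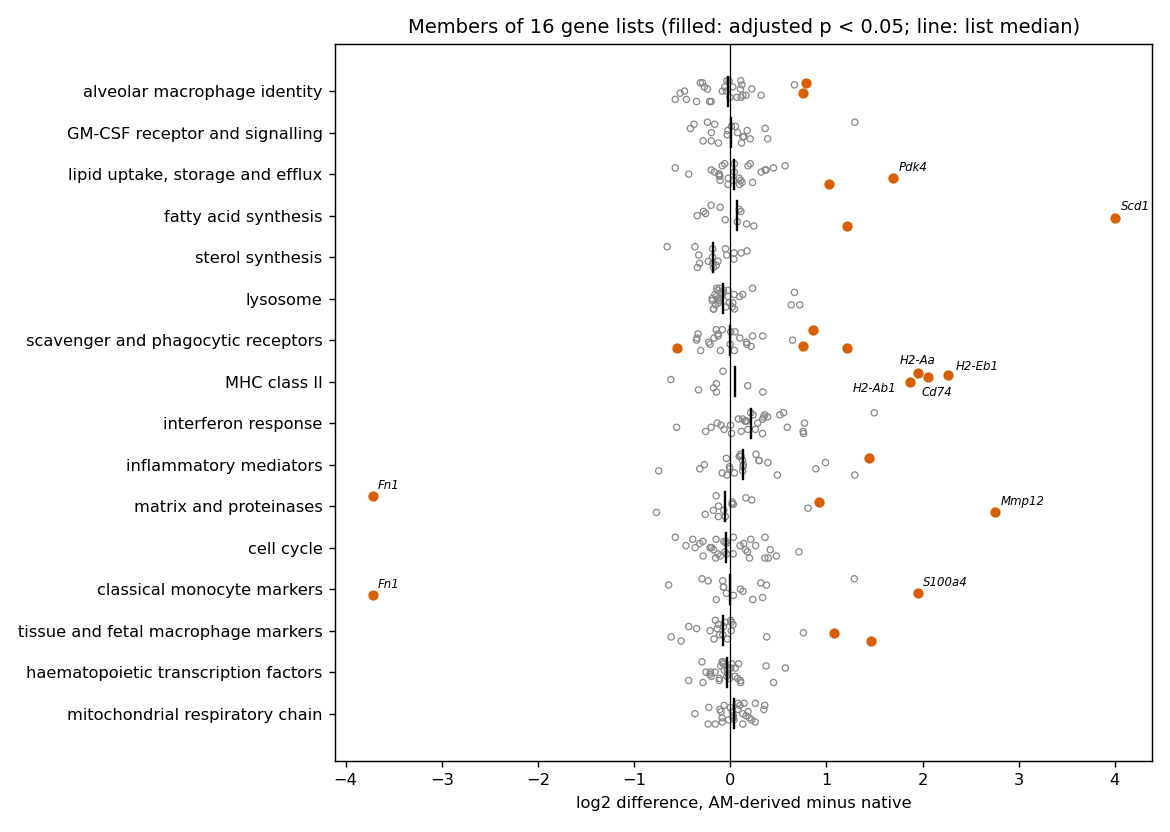
Log2 difference, AM-derived (retransferred) minus native, of the tested members of 16 gene lists; filled points passed the threshold and the short vertical line is the list's median. The medians lie between -0.18 for sterol synthesis and 0.21 for the interferon response, and the 4 called MHC class II genes stand together near 2 apart from the rest of their list.

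Retransferred macrophages were next set against adult donor macrophages, the cells they came from. These 86 called genes (0.702%), 49 higher (0.4%) and 37 lower (0.302%), rest on the same retransferred arrays as the comparison with native macrophages. The genes called in the same direction against both references with the lowest values of the larger of their 2 p-values were Msr1, Mfge8, AA467197 and Stra6l, all higher, and Fn1, Inka1, St8sia4 and Hpgd, all lower. Stra6l, related to the retinol receptor, was at 7.06, 7.5, 6.82 and 6.44 after transfer, between 5.70 and 5.83 in native and between 5.40 and 5.93 in donor macrophages. It exceeded native macrophages by 1.21 (SE 0.17, limma adjusted p = 2.83e-05) and the donors by 1.21 (limma adjusted p = 5.59e-05). St8sia4, which adds polysialic acid to surface proteins, was lower, at -1.03 against native macrophages (SE 0.15, limma adjusted p = 3.53e-05) and -1.08 against donors (limma adjusted p = 3.79e-05). Ddah1 was higher than in donors by 3.59 (limma adjusted p = 0.000204) and Mmp12 by 2.77 (limma adjusted p = 0.000729). In donors, Ddah1 was between 4.84 and 5.04 and Mmp12 between 6.06 and 7.09, both within the native range.

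The recipients of other precursors showed which differences set retransferred macrophages apart from cells of other origin in the same host. Against the mean of the bone marrow-, fetal liver- and yolk sac-derived groups 56 genes differed (0.457%), 38 higher (0.31%) and 18 lower (0.147%). The class II genes and Clec1b headed the higher ones, H2-Aa by 2.79 (limma adjusted p = 1.34e-05), H2-Ab1 by 2.62 (limma adjusted p = 8.58e-06), Cd74 by 2.47 (limma adjusted p = 1.2e-05), H2-Eb1 by 2.42 (limma adjusted p = 2.83e-05) and Clec1b by 2.21 (limma adjusted p = 4.77e-07). The 3 other origins were not alike in these genes. H2-Aa had a mean of 10.94 ± 0.33 in retransferred, 10.35 ± 0.82 in bone marrow-derived, 6.54 ± 1.12 in fetal liver-derived and 7.56 ± 0.43 in yolk sac-derived macrophages (SD, n = 4 each). Bone marrow-derived macrophages overlapped the retransferred ones, and fetal liver- and yolk sac-derived ones lay below the native mean of 8.98 ± 0.94. Clec1b was at 7.31 ± 0.73, 5.47 ± 0.41 and 5.82 ± 0.28 in the same 3 groups, each below the retransferred mean of 8.41 ± 0.05.

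Spag11b was higher than in the other derived groups by 2.21 (limma adjusted p = 0.00375), Ct55, a cancer/testis antigen gene, by at least 1.45-fold (limma adjusted p = 8.47e-06) and Tmem30b, a subunit of phospholipid flippases, by at least 1.82-fold (limma adjusted p = 1.05e-06). These are bounds, since Ct55 was dim in all 12 arrays of the other derived groups and Tmem30b in 8 of them. Ct55 and Tmem30b were also at dim levels in native macrophages, 3.94 ± 0.34 and 4.56 ± 0.24, and at 5.16 ± 0.84 and 5.51 ± 0.22 after retransfer. The retransferred arrays were at 5.46, 4.67, 4.31 and 6.19 for Ct55, and the lowest lay below the highest native array, 4.37. Donor replicate 3 was at 4.77. Ct55 passed the filter on dim signal mainly through the retransferred arrays, so its call is not independent of that filter. Fn1 was lower than in the other derived groups, with a difference of -2.15 (limma adjusted p = 0.000122), with means of 6.48 ± 0.55 in retransferred, 7.38 ± 0.28 in bone marrow-derived, 9.40 ± 1.2 in fetal liver-derived and 9.12 ± 0.37 in yolk sac-derived macrophages. Gbe1, dim after retransfer, was at least 1.19-fold lower (limma adjusted p = 0.00465). Of the 21 genes called in both comparisons, Adgrl3 and Awat1 went opposite ways in them. Awat1, an acyltransferase singled out after its values were seen, was higher than in native macrophages by 1.72 (limma adjusted p = 0.00879) and differed from the other derived groups by -1.50 (limma adjusted p = 0.0075). Adgrl3 was lower than in native macrophages but at least 1.63-fold higher than in the other derived groups (limma adjusted p = 0.00304), whose means were 3.96 ± 0.39, 4.85 ± 0.64 and 4.42 ± 0.33 against 5.48 ± 0.39.

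**Figure D4:**
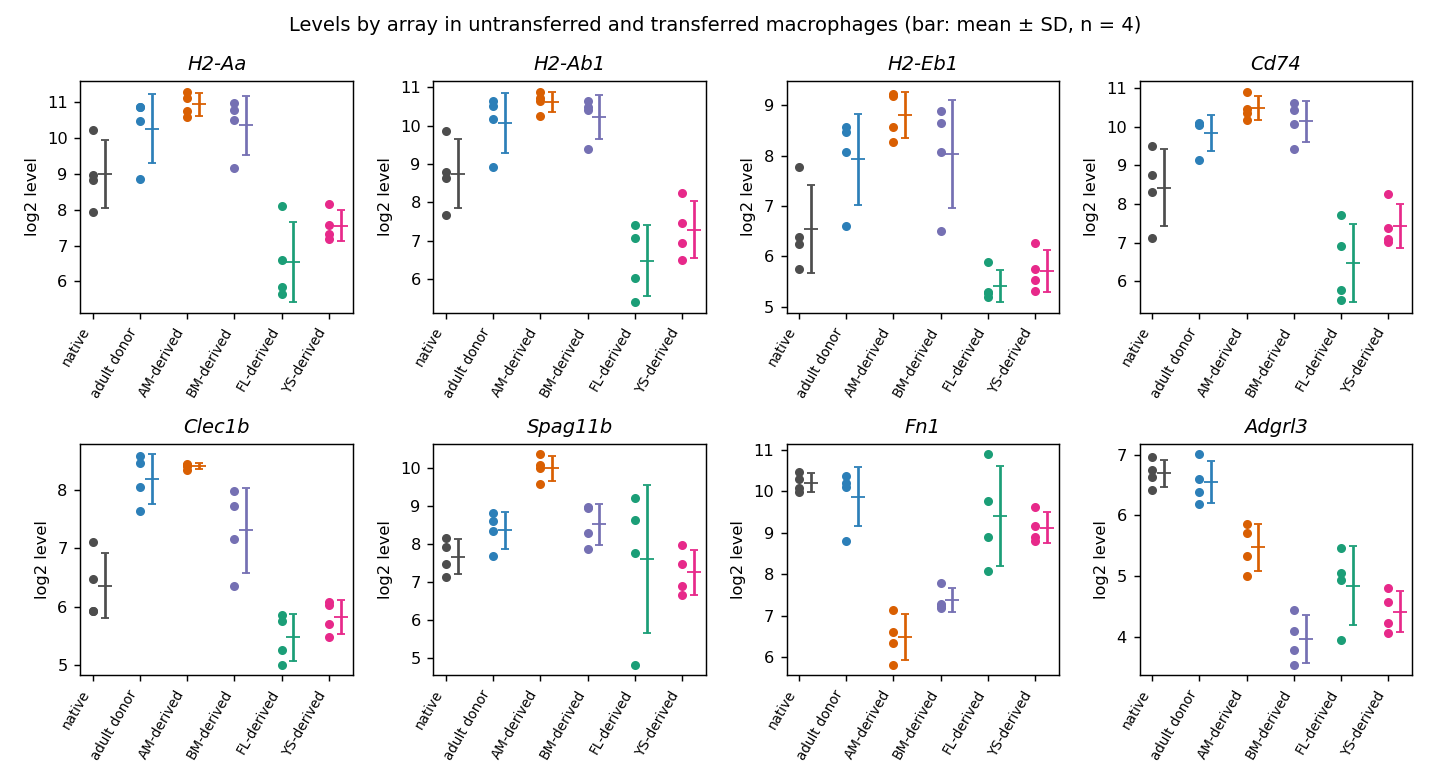
Log2 level in each array (points) with mean ± SD (n = 4) of 8 genes in native, adult donor, AM-derived (retransferred), BM-, FL- and YS-derived macrophages. H2-Aa, H2-Ab1, H2-Eb1, Cd74 and Clec1b are high in donor and retransferred and low in FL- and YS-derived macrophages; Fn1 is lowest in the retransferred ones.

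Of the 63 named genes 15 passed the test against the other origins, against 0.457% of all genes tested. Up to 6 were named because they passed it, and many others by calls on the same retransferred arrays. The 15 are therefore not an unselected sample. Scd1, Mfge8, Mmp12, Emb and Ddah1 were among the named genes that did not pass. Each derived group is set against the same 4 native arrays, so the values stand side by side and are not independent. Scd1 was above native by 4.00 after retransfer and by 3.22, 3.17 and 3.57 in bone marrow-, fetal liver- and yolk sac-derived macrophages, and the test of retransferred against the other origins gave 0.69 (SE 0.30, limma adjusted p = 0.534). Mfge8 was above native by 2.27, 2.54, 2.59 and 2.89 in the same order, and its test gave -0.41 (limma adjusted p = 0.641). Mmp12 was above native by 2.76, 2.17, 2.25 and 3.16, and its test gave 0.23 (limma adjusted p = 0.94). Emb stood at -3.05, -3.45, -1.98 and -3.08 against native, and its test gave -0.21 (limma adjusted p = 0.941). Of these genes Ddah1 varied most across the groups, at 3.78, 1.92, 2.39 and 5.95 above native. The test against the mean of the others gave 0.36 (limma adjusted p = 0.912). Fetal liver-derived arrays were at 8.63, 8.88, 7.07 and 4.16 for Ddah1 (SD 2.17) and at 6.08, 6.03, 6.61 and 8.90 for Emb. Replicate 4 of that group thus stood apart in both genes. The counts of genes called against native were 131 for retransferred, 160 for bone marrow-derived (1.31%; 101 higher, 0.825%, and 59 lower, 0.482%), 128 for fetal liver-derived (1.05%; 74 higher, 0.604%, and 54 lower, 0.441%) and 211 for yolk sac-derived macrophages (1.72%; 125 higher, 1.02%, and 86 lower, 0.702%).

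**Figure D5:**
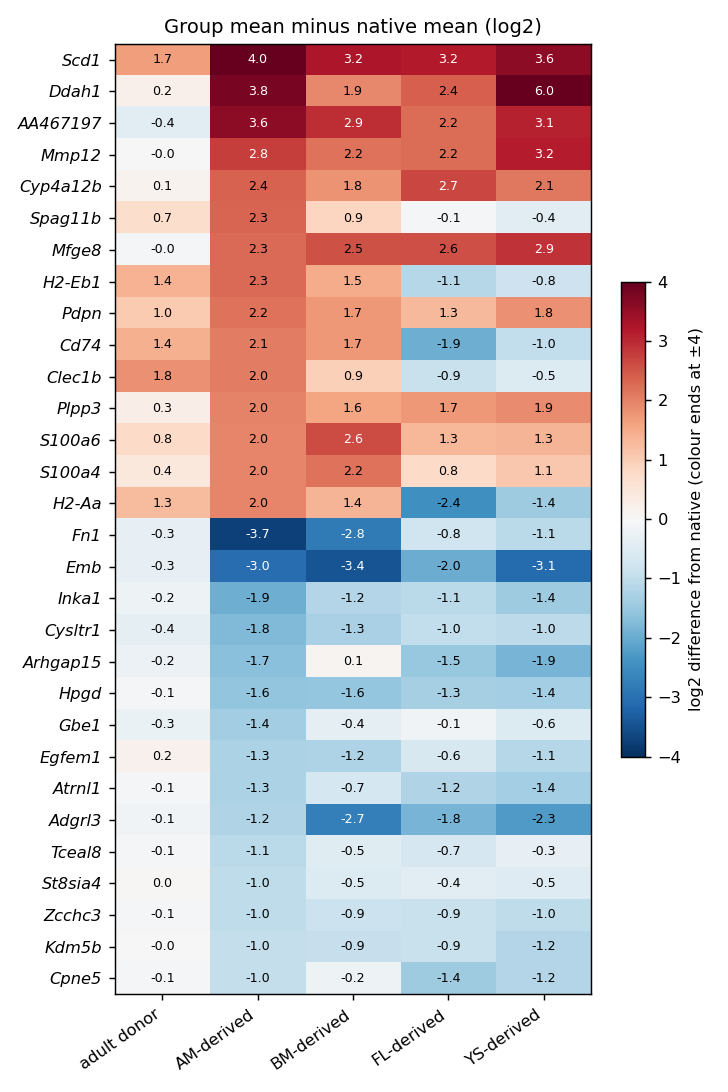
Mean log2 level of each group minus the native mean for the 15 leading higher and 15 leading lower genes; red is higher, blue is lower, and colour ends at ±4. The adult donor column exceeds 1 for Scd1, Clec1b, Pdpn, Cd74, H2-Eb1 and H2-Aa and lies between -0.42 and 0.76 for the other genes. All 4 derived columns are high for Scd1 and Mfge8 and low for Emb, while class II genes and Clec1b are low in the FL- and YS-derived columns.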

How the data were processed

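The authors deposited log2 expression values made with RMA, which corrects background, quantile-normalises across arrays and summarises probes; its version, and whether all 36 arrays were processed together, is not given in the sources used here (tool per the submitters' processing notes). Of 35556 probe sets, 21789 had a single symbol and gave 19938 genes (the brightest probe set where a gene had several); 21698 probe sets were renamed through RefSeq GRCm38.p6. The 12244 genes above the table median of 4.62 in at least 4 arrays were tested with limma 3.58.1 (R 4.3.3) on all 36 arrays, 9 group means, no covariate. "At least" folds are given where the lower group's mean was below that median, with the median in place of that group's dim arrays. On simulated data 88% of log2 changes of 1 and 100% of changes of 2 were recovered, and 9.18% of calls were false. Named genes are a panel of 12, the 15 leading non-overlapping calls in each direction, up to 4 members per list, and up to 8 and 6 genes from the donor and other-origin comparisons, chosen with earlier results of these data known, as were the 42 gene lists. Same-numbered arrays did not deviate together (correlations 0.04, -0.14, -0.03 and -0.11), and the labels state no pairing, so the main fit used none. These correlations cannot exclude that same-numbered arrays shared a batch. Scanner files and scan dates were not used here.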

Additional observations from a re-analysis of the deposited data

Results flagged for a closer look

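In 5 of 126 groups of 4 arrays checked (3.97%, where chance gives about 1 in 20) a single array stood far from the other 3. Native Mfge8 had an array at 6.03 (nearest 5.46), native Lpcat2 at 5.75 (nearest 6.29), native Slc7a1 at 6.58 (nearest 6.43), and Cxcr1 an array at 7.56 among the retransferred (nearest 8.62) and at 6.66 among the native ones (nearest 7.44).

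The test of retransferred macrophages against the other derived groups was passed by 15 of the named genes. The differences were 2.79 for H2-Aa, 2.62 for H2-Ab1, 2.47 for Cd74, 2.42 for H2-Eb1, 2.21 for Clec1b and 2.21 for Spag11b. They were 1.57 for Ct55, 1.07 for Adgrl3, 1.02 for Tmem30b and 0.63 for Marco. The lower ones were Fn1 at -2.15, Gbe1 at -1.05, Fcgr1 at -0.59, Tceal8 at -0.58 and St8sia4 at -0.53. For Ct55, Adgrl3, Tmem30b and Gbe1 the lower side was dim, so that these measured differences are not exact sizes.

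Outside the genes reported, 7 of 7524 tested probe sets without a single gene symbol (0.093%) differed between retransferred and native macrophages, 6 higher and 1 lower.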

How the results depend on the processing

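None of the 131 called differences from native changed direction under the alternatives run; single genes of the other comparisons were not refitted. With only the 8 arrays compared, 72 genes were higher and 25 lower, with 80 of the 131 calls kept. With only the 24 alveolar macrophage arrays, 66 were higher and 31 lower, with 86 of the 131 calls kept. Among those lost were H2-Aa, H2-Ab1, Scd2, Marco, Cyp4a12b, Spag11b, S100a4 and S100a6. The replicate block on all 36 arrays gave 93 and 38, with 124 of the 131 calls kept, and on the 8 arrays 53 and 17, with 60 kept. A test against a fold of 1.2 gave 43 and 11. Chosen after seeing the data, native replicates 1 and 4 alone gave 54 and 23, and native replicates 2 and 3 alone 35 and 11. Leaving out 1 array gave 62 to 83 higher and 22 to 35 lower genes, with 62 higher without native replicate 3, and 25 and 22 lower without native replicates 1 and 4. For donor against native it gave 1 to 5 higher (5 without native replicate 2, 1 without native replicate 3 or 4 or donor replicate 4) and 0 to 1 lower (1 without donor replicate 2). Against donors it gave 34 to 48 higher and 23 to 36 lower (23 without retransferred replicate 4), and against the other derived groups 25 to 41 higher (25 without retransferred replicate 3) and 13 to 22 lower, over the 4 retransferred and, added after seeing the data, the 12 other arrays. Without the filter on dim genes 1 gene was lower in donors than in native macrophages. Of the 131 genes, 62 were called in every fit that left out 1 array and 32 under every alternative. The excess distance between groups was 0.0324 without the filter, 0.0472 after quantile normalization and 0.00564 as 1 minus the correlation, each with the smallest exact permutation p, 0.0286. The number of arrays and dim signal limit the precision: 29 called genes have only a bound, and 3 were dim in both groups.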

Other observations

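Further called genes were singled out after their values were seen and are given as measured. Mreg, melanoregulin, was 7.76 ± 0.18 in retransferred and 6.49 ± 0.53 in native macrophages (SD, n = 4; log2 1.26, limma adjusted p = 7.12e-05). Mlph, the melanophilin adaptor, was 6.12 ± 0.25 against 5.38 ± 0.16 (0.74, limma adjusted p = 0.00563) and the motor Myo5a 7.0 ± 0.64 against 5.52 ± 0.37 (1.49, limma adjusted p = 0.00771), the last not called without retransferred replicate 1 (adjusted p = 0.0644).

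Ch25h, which makes 25-hydroxycholesterol, was 9.60 ± 0.30 against 8.43 ± 0.48 (1.17, limma adjusted p = 0.00545; adjusted p = 0.0507 without native replicate 3). Rgcc, a cell cycle regulator, was 8.74 ± 0.37 against 7.0 ± 0.21 (1.74, limma adjusted p = 1.06e-05), and Car13, a cytosolic carbonic anhydrase, 7.0 ± 0.35 against 5.25 ± 0.47 (1.76, limma adjusted p = 4.89e-05). Epas1, a hypoxia-inducible transcription factor, was 7.41 ± 0.49 against 6.11 ± 0.29 (1.3, limma adjusted p = 0.00474), while none of 25 hypoxia and glycolysis genes was called (median -0.04). Clec4a3, an inhibitory C-type lectin, was lower at 10.00 ± 0.09 against 10.68 ± 0.10 (-0.68, limma adjusted p = 0.018), a call lost without retransferred replicate 1 or 4 or native replicate 3. Against native replicates 1 and 4 alone the calls of Epas1, Ch25h, Myo5a and Clec4a3 were lost, and against native replicates 2 and 3 alone those of Mlph, Ch25h, Myo5a and Clec4a3.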
